A study of Mus musculus with 17 samples.

Results

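The interval from 98550000 to 98750000 on mouse chromosome 11 (mm9) surrounds the 100 kb window that held more binding sites of the transcription factor WT1 than any other window of the genome in 3 of the 5 groups of the study. Its members are all called peaks whose summit falls in it, and they numbered 107 of the 107761 peaks in the 5 deposited lists. The interval was chosen by the peak counts of 3 lists, those of PBS podocytes, of PBS glomeruli and of podocytes at day 14, so these counts are given as a description. The genes that this choice names for the 100 kb window are Thra, Nr1d1, Msl1 and Casc3. In a RefSeq gene table of a later build, GRCm38.p6, these 4 are consecutive protein-coding genes on chromosome 11 in that order, with Med24 before Thra and Rapgefl1 after Casc3, and Thra and Nr1d1 overlap. Positions of genes in mm9 were not analysed here, so no peak below is tied to one gene.

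WT1 is a zinc-finger transcription factor that podocytes, the epithelial cells covering the capillaries of the kidney filter, need throughout life. Thra encodes thyroid hormone receptor alpha, a nuclear receptor that activates or represses genes depending on bound hormone. Nr1d1 encodes REV-ERB alpha, a heme-binding nuclear receptor that represses Bmal1 (Arntl) within the circadian clock. Msl1 encodes the scaffold of the MSL complex, which acetylates histone H4 at lysine 16. Casc3 encodes a component of the exon junction complex, which marks spliced mRNA.

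WT1 was immunoprecipitated with the antibody sc-192 from mice aged 7 to 8 weeks of labelled genotype wildtype, and the enriched DNA was sequenced (ChIP-seq). Glomeruli isolated from BALB/cJ mice gave 4 libraries after adriamycin (ADR, doxorubicin, a drug toxic to podocytes) and 4 after phosphate-buffered saline (PBS). Purified podocytes of mT/mG reporter mice, in which a podocyte-specific Cre labels these cells, gave 3 libraries with PBS and, after ADR, 2 on day 9 and 2 on day 14. The labels give no day for either glomerular group or for PBS podocytes. Isolated glomeruli also hold endothelial and mesangial cells, and the peak lists carry no expression values with which to check either preparation. In every list, fewer WT1-bearing cells and less bound WT1 per cell cannot be told apart.

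Only 1 peak list stands for each group. Libraries could therefore not be compared within a group, differences have no replicate check, and groups were compared without a test. Read depth was not analysed here. A fold enrichment is the authors' value for a peak over the caller's background. It ranks peaks within a list and is on no common scale between lists, so a percentile within the list (100 for the most enriched) is given beside it, and percentiles from lists of different length do not show a change. Intervals beside shares are exact 95% binomial intervals and cover the counting error of peaks only.

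No genome of the build of the peaks was at hand, and the bases under the peaks are therefore not shown. Upstream sequence of 2 of the 4 genes was present in a RefSeq promoter table (GRCm38.p6), namely Nr1d1 and Msl1, and it lists 2 start sites for Msl1. The 250 bases before the start of transcription are printed for Nr1d1 and for the first Msl1 start site. They serve as an example without and an example with WT1-type letters. Capitals mark the only match to any of 5 motifs searched on both strands. The sequence printed for Nr1d1 lies at chr11:98775378-98775627 on the minus strand and that for Msl1 at chr11:98795266-98795515 on the plus strand. These GRCm38.p6 positions cannot be set against the mm9 positions of the peaks.
Nr1d1: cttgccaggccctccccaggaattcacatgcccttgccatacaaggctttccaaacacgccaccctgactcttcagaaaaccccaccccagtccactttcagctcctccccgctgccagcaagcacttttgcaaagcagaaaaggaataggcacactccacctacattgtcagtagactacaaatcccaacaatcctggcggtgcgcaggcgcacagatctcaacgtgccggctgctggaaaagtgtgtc
Msl1: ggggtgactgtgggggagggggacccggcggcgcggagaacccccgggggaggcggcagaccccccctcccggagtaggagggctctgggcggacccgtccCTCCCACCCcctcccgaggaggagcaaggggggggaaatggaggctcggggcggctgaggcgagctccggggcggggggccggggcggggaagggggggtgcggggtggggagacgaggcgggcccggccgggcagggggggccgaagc

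The Msl1 upstream sequence held the WT1-type letters GNGTGGGNG on its minus strand, as CTCCCACCC at bases 102 to 110 counted from 1 at the 5′ end. Such letters were present in 12.7% of the 32851 promoter entries in the table, over the same 250 bases. None of the other motifs was found in the Msl1 sequence printed. These were the EGR-type GCGGGGGCG (2.57% of entries), TCCTCCTCC (2.45%), the E-box CACGTG (6.02%) and the nuclear receptor half-site AGGTCA (14.02%). The Nr1d1 sequence and the second Msl1 start site held none of the 5. The GC content was 54.8% upstream of Nr1d1, 80.4% at the first Msl1 start site and 39.6% at the second. A match of letters is not a bound site, and no match says nothing of WT1 at these promoters beyond these bases.

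The members numbered 14 peaks in ADR glomeruli and 31 in PBS glomeruli, and podocytes had 25 with PBS, 26 at day 9 and 11 at day 14. Peaks that overlapped by at least 1 bp merged into 37 regions, numbered here 1 to 37 from low to high position, out of 41770 regions in the genome. A region had a peak in all 5 lists in 10 cases (27.0%, 13.8 to 44.1), against 11.2% of all regions, and in 1 list alone in 11 cases (29.7%, 15.9 to 47.0), against 34.5%. Another 4 regions (10.8%) had a peak in 4 lists, 4 (10.8%) in 3 lists and 8 (21.6%) in 2 lists, against 17.4%, 18.4% and 18.5% of all regions. The peak counts of 3 of the lists, day 14 among them, had entered the choice of the interval, so nothing is read from these shares. The peaks covered 3.55% of the interval in ADR glomeruli and 7.36% in PBS glomeruli, and 7.79%, 8.03% and 2.26% in PBS, day 9 and day 14 podocytes.

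**Figure D1:**
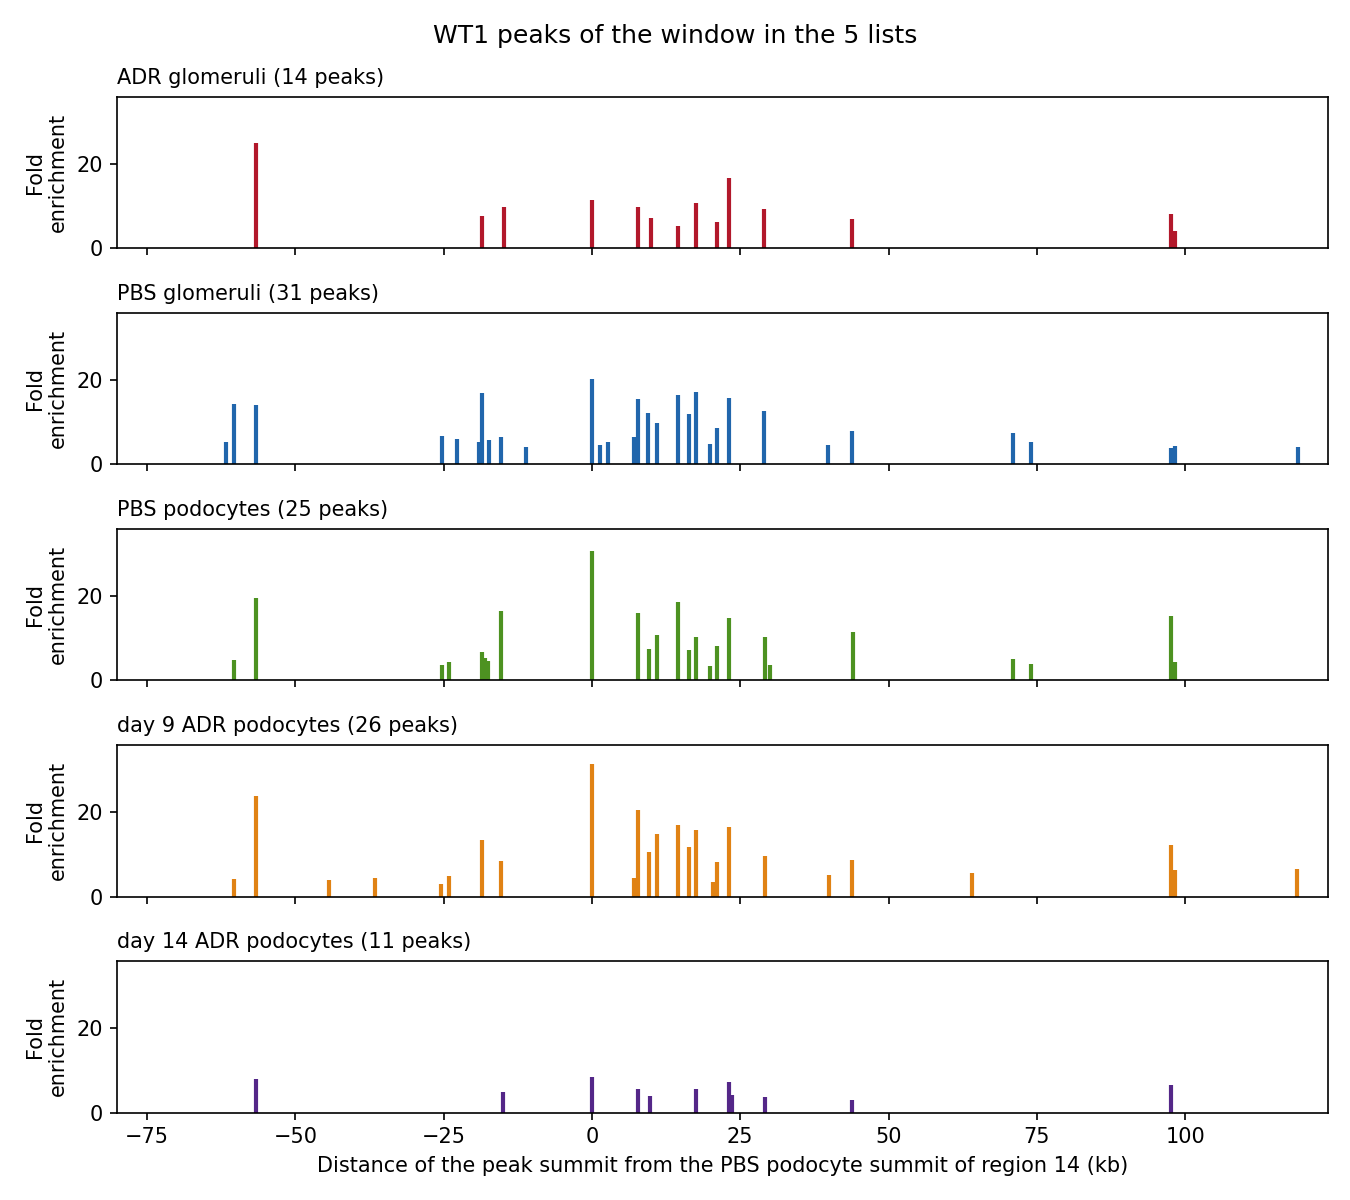
WT1 peaks of the interval in the 5 lists, 1 panel a list, with each summit drawn as a line whose height is the authors' fold enrichment (vertical axis) at its distance in kb from the PBS podocyte summit of region 14 (horizontal axis). Regions 14 to 29, of which region 14 is the lowest in position, held 8 of 14 peaks in ADR glomeruli and 14 of 31 in PBS glomeruli. In PBS, day 9 and day 14 podocytes they held 12 of 25, 12 of 26 and 7 of 11. The day 14 list has 11 peaks, none above 8.42-fold.

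The regions were unevenly spread. The median gap between neighbouring regions was 1771 bp, and the gaps ran from 94 to 22981 bp. Over the genome it was 12830 bp, and a shorter gap follows from choosing the interval for its many peaks. When the interval was divided at gaps over 5 kb, a size picked after the gaps were seen, the largest group ran from 98626815 to 98657488 and held regions 14 to 29. These 30674 bp held 16 of the 37 regions, 53 of the 107 peaks and 6 of the 10 regions found in all lists. The widest gap inside it, of 4873 bp between regions 27 and 28, was just under that size. A second group, regions 6 to 13 at 98601630 to 98616305, held 8 regions and 20 peaks, but 1 region found in all lists. The remaining 13 regions were in groups of 1 to 3.

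On a fixed grid of 100 kb windows, that from 98600001 to 98700000 held 20 PBS podocyte peaks, 24 PBS glomerular peaks and 9 day 14 peaks, the counts by which it was chosen. The next densest windows held 19, 21 and 8, so the lead was 1 to 3 peaks. The choice did not use the other 2 lists, but their counts are not independent of it, since the lists share many peaks. Of all ADR glomerular peaks 82.6% overlapped a PBS glomerular peak, and 87.0% of all PBS podocyte peaks overlapped a day 9 peak. In ADR glomeruli the window held 11 peaks, and 24 of the 7663 windows with a peak held more. At day 9 it held 19 peaks, and 9 of 10640 windows held more. The median window with a peak held 2 peaks in those lists, and the 99th percentile was 9 in ADR glomeruli and 13 at day 9.

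**Figure D2:**
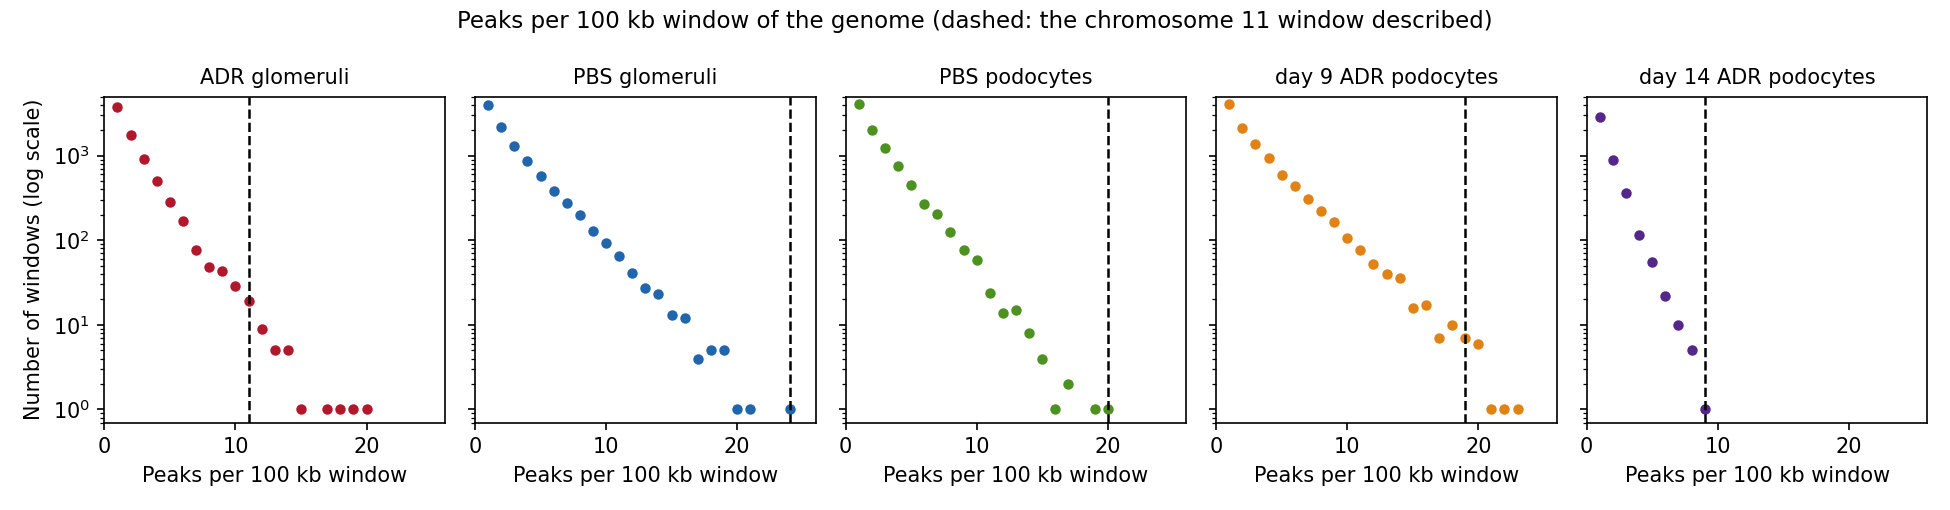
Number of 100 kb windows (vertical axis, log scale) by the number of peaks in them (horizontal axis), 1 panel a list, with a dashed line at the window from 98600001 to 98700000. The line stands at the highest count for PBS podocytes (20), for PBS glomeruli (24) and at day 14 (9), the counts that chose the window, and below the highest in ADR glomeruli (11 against 20) and at day 9 (19 against 23).

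The edges of the interval fell in stretches with few peaks at the low side and ahead of more peaks at the high side. The last peaks before the low edge had their summits at 98543888 to 98543994 in 4 lists, with 3.25- to 8.55-fold enrichment, and the 100 kb below the edge held 1 peak in each of these lists and 0 at day 14. The first members inside were region 1 in PBS glomeruli (5.24-fold), region 2 in day 9 and PBS podocytes (4.16- and 4.92-fold) and region 3 in ADR glomeruli and at day 14 (25.0- and 7.87-fold). The last members inside were region 37 in PBS glomeruli and at day 9 (4.13- and 6.51-fold), region 36 in ADR glomeruli and PBS podocytes (4.20- and 4.48-fold) and region 35 at day 14 (6.63-fold). The 100 kb beyond the high edge held 10 and 13 peaks in ADR and PBS glomeruli, and 12, 13 and 2 in PBS, day 9 and day 14 podocytes. The first of these peaks had its summit at 98791155 to 98791177 in 4 lists and at 98812624 at day 14.

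Region 14, at 98626815 to 98627598, was the most enriched site of the interval in 4 of the 5 lists. Its fold enrichment was 11.4 in ADR glomeruli (percentile 79.1) and 20.1 in PBS glomeruli (93.9). In podocytes it was 30.7 with PBS (97.4), 31.5 at day 9 (95.2) and 8.42 at day 14 (71.8). The summits of the 5 lists lay within 69 bp of one another. It ranked 621 among all 23402 PBS podocyte peaks, and no other member ranked higher in that list.

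Region 3, at 98569482 to 98571201, was the longest of the interval at 1720 bp and led it in ADR glomeruli. Its peak had 25.0-fold enrichment in ADR glomeruli (97.8) and 14.05-fold in PBS glomeruli (83.3). In podocytes the values were 19.5 with PBS (92.3), 23.7 at day 9 (91.7) and 7.87 at day 14 (67.8). The 5 summits fell within 19 bp, the closest agreement of the 10 regions found in all lists. Region 3 in ADR glomeruli (rank 374 of 16634) and region 14 in PBS podocytes were the only members among the 1000 most enriched peaks of their list.

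Region 27, at 98650050 to 98651084, stood at percentile 84.8 or higher in 4 lists. It had 16.8-fold in ADR glomeruli (91.8) and 15.7-fold in PBS glomeruli (87.2), and at 14.8-, 16.4- and 7.22-fold in PBS, day 9 and day 14 podocytes (86.8, 84.8 and 61.0). At day 14 the caller split it into 2 peaks, the other with 4.14-fold enrichment, and region 10 was split likewise in PBS podocytes. Region 18, at 98634753 to 98635715, had 9.89-fold enrichment in ADR glomeruli (72.3) and 15.4-fold in PBS glomeruli (86.7), with 15.9-, 20.6- and 5.60-fold in PBS, day 9 and day 14 podocytes (88.6, 89.4 and 38.5). Region 23, at 98644423 to 98645205, had 10.7-fold in ADR glomeruli (76.4) and 17.1-fold in PBS glomeruli (89.8), with 10.3-, 15.8- and 5.58-fold in the 3 podocyte lists in the same order (75.9, 83.9 and 38.3). In these regions the ADR and PBS glomerular peaks all stood at or above percentile 72.3 of their lists.

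The other 5 regions found in all lists were regions 12, 19, 28, 31 and 35. Region 35, at 98724444 to 98725244, was the one whose percentile differed most between PBS podocytes and PBS glomeruli. It had 8.12-fold enrichment in ADR glomeruli (59.6) and 4.00-fold in PBS glomeruli, the lowest of the 31 members there (percentile 4.799), while podocytes had 15.2-fold with PBS (87.5), 12.3-fold at day 9 (76.8) and 6.63-fold at day 14 (54.2). Region 12, at 98611669 to 98613022, had 9.89-fold in ADR glomeruli (72.3) and 6.48-fold in PBS glomeruli (39.3). It had 16.4-, 8.52- and 4.87-fold in PBS, day 9 and day 14 podocytes (89.1, 62.5 and 24.7). Ranked by caller p-value, the PBS glomerular peaks of regions 12 and 35 were at 10615 and 21921 of 29082. By fold enrichment they ranked 17647 and 27686, so how low they stood depends on the measure. Regions 19, 28 and 31 ran from 6.93- to 9.41-fold in ADR glomeruli, from 7.86- to 12.7-fold in PBS glomeruli and from 7.37- to 11.4-fold in PBS podocytes. At day 9 they ran from 8.67- to 10.6-fold, and at day 14 from 3.03- to 4.05-fold, all at or below percentile 12.01 of that list.

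**Figure D3:**
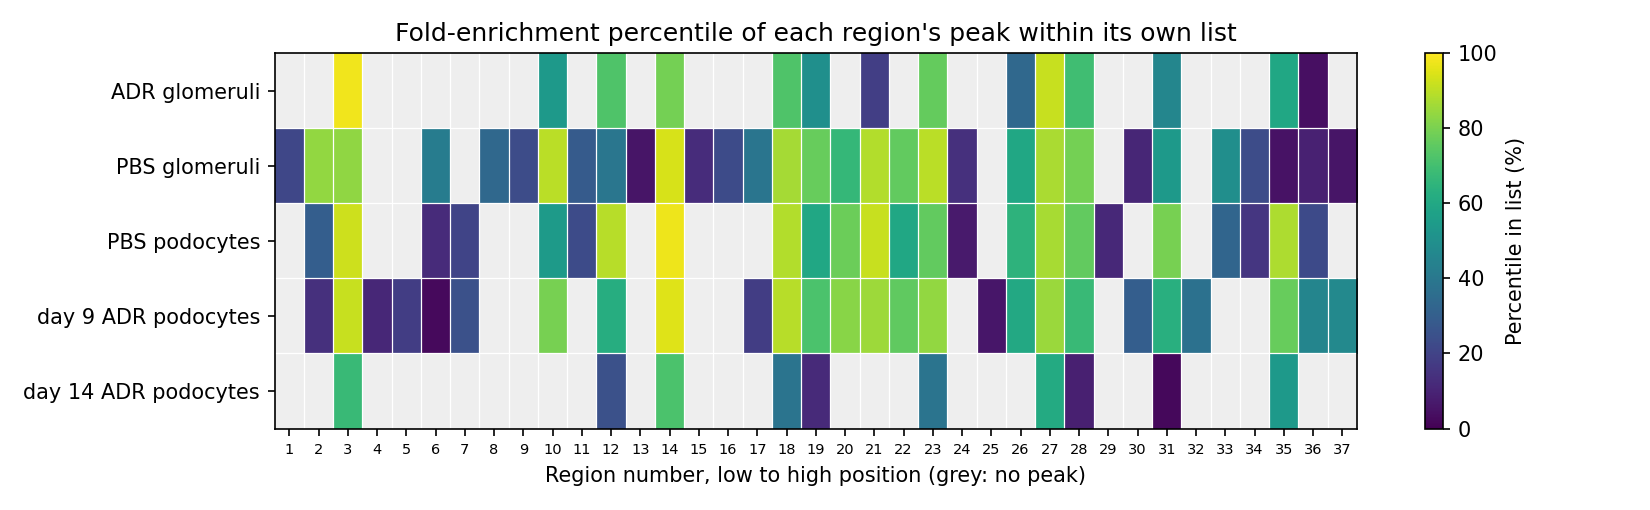
The 37 regions from low to high position (horizontal axis) in each list (vertical axis), coloured by the percentile of the region's most enriched peak within that list, with grey where the list has no peak. The 10 columns filled in every list are regions 3, 12, 14, 18, 19, 23, 27, 28, 31 and 35, and region 35 stands at percentile 87.5 in PBS podocytes and 4.799 in PBS glomeruli.

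ADR glomeruli were set against PBS glomeruli to see which sites of the interval were called after injury. All 14 ADR peaks overlapped a PBS peak (interval 76.8 to 100), against 82.6% of all ADR peaks. Of the 31 PBS peaks, 14 overlapped an ADR peak (45.2%, 27.3 to 64.0), close to the 46.5% of all PBS peaks. With the PBS list shortened by caller p-value to the number of ADR peaks, the share was 75.0% in the interval and 59.7% over the whole shortened list. The PBS peaks with an ADR peak had a median enrichment of 13.4-fold and the 17 without one 5.36-fold. The lists held 14 and 31 members, a ratio of 0.452, beside 0.572 for all peaks. The PBS count had entered the choice of the interval and the ADR count had not, so nothing is read from this ratio. The most enriched PBS peak without an ADR peak was in region 2, at 98566582 to 98567121, with 14.2-fold enrichment (83.8), where 73.7% of the PBS peaks at least as enriched had an ADR peak. Next came region 22 with 11.9-fold and region 20 with 9.77-fold. Region 21 had an ADR peak of 5.29-fold, at percentile 18.6 of its list, beside a PBS peak of 16.3-fold at percentile 88.4.

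Day 9 podocytes had 26 peaks and PBS podocytes 25, a ratio of 1.04 beside 1.37 for all peaks. Of the day 9 peaks, 19 overlapped a PBS peak (73.1%, 52.2 to 88.4), against 64.0% of all day 9 peaks. Of the PBS peaks, 20 overlapped a day 9 peak (80.0%, 59.3 to 93.2), against 87.0%. Both intervals include the share over all peaks. The peaks without a match stood below the median enrichment of their list. They had at most 6.51-fold at day 9 (percentile 47.0) and 5.07-fold with PBS (32.7). Region 14 led both lists and region 3 came second in both.

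The day 14 peaks lay at the more enriched sites of the interval, which was not particular to it. Over the whole PBS podocyte list, 29.2% of peaks with at least 3.33-fold enrichment had a day 14 peak. Of those with at least 18.7-fold, 95.6% had one. All 11 day 14 peaks overlapped a PBS podocyte peak, against 96.1% of all day 14 peaks, and all 11 a day 9 peak, against 99.7%. Conversely, 10 of the 25 PBS peaks overlapped a day 14 peak (40.0%, 21.1 to 61.3), against 27.0% of all PBS peaks, and so did 10 of the 26 day 9 peaks (38.5%, 20.2 to 59.4), against 20.5%. With these lists shortened by caller p-value to the number of day 14 peaks, the shares were 81.8% for PBS members, against 71.2% over the whole shortened list, and 72.7% for day 9 members, against 77.4%. The PBS podocyte list served both the day 9 and the day 14 comparison, so these shares are not independent. The peak counts of the PBS podocyte and day 14 lists had also entered the choice of the interval. Nothing is therefore read from the differences between these shares and those over all peaks. PBS peaks with a day 14 peak had a median of 14.99-fold and those without one 4.92-fold. At day 9 the medians were 14.04-fold and 5.44-fold.

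Region 21, at 98641576 to 98642095, had no day 14 peak although it stood high in 3 lists. Its peaks had 5.29-fold enrichment in ADR glomeruli and 16.3-fold in PBS glomeruli, and 16.9- and 18.7-fold in day 9 and PBS podocytes (85.4 and 91.7). Of the 1954 PBS podocyte peaks at least this enriched, 95.6% had a day 14 peak, and of the day 9 peaks at least this enriched 84.4%. Ranked by caller p-value in place of fold enrichment, the shares were 95.6% and 83.3%. Region 31 by contrast had a day 14 peak, of 3.03-fold, with 8.67-fold at day 9 and 11.4-fold in PBS podocytes. Region 20, at 98637960 to 98638571, had a peak in neither day 14 podocytes nor ADR glomeruli, with 14.8-fold at day 9 and 10.8-fold in PBS podocytes. Of the day 9 and PBS podocyte peaks at least this enriched, 78.5% and 80.8% had a day 14 peak. Of the PBS glomerular peaks at least as enriched as that of region 20, 65.4% had an ADR peak. Regions 10, 21, 26 and 36 had peaks in all lists but day 14 (10.8%, 3.03 to 25.4), against 13.7% of all regions. Regions 2, 6, 20 and 22 had peaks in all but day 14 and ADR glomeruli, also 10.8%, against 13.3%.

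PBS podocytes were set against PBS glomeruli to compare the purified cell with the whole filter, strain and preparation differing together. Of the 25 podocyte peaks 23 overlapped a glomerular peak (92.0%, 74.0 to 99.02), against 80.7% of all PBS podocyte peaks. Of the 31 glomerular peaks 22 overlapped a podocyte peak (71.0%, 52.0 to 85.8), against 66.4%. The 2 podocyte peaks without a match had at most 4.34-fold enrichment, and the 9 glomerular ones at most 6.45-fold. Over all lists, 31 of the 37 regions had a podocyte peak (83.8%), against 82.6% of all regions, and 31 had a glomerular peak, against 74.3%. The peak counts of both PBS lists had entered the choice of the interval, so nothing is read from these shares beside those of the whole genome.

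**Figure D4:**
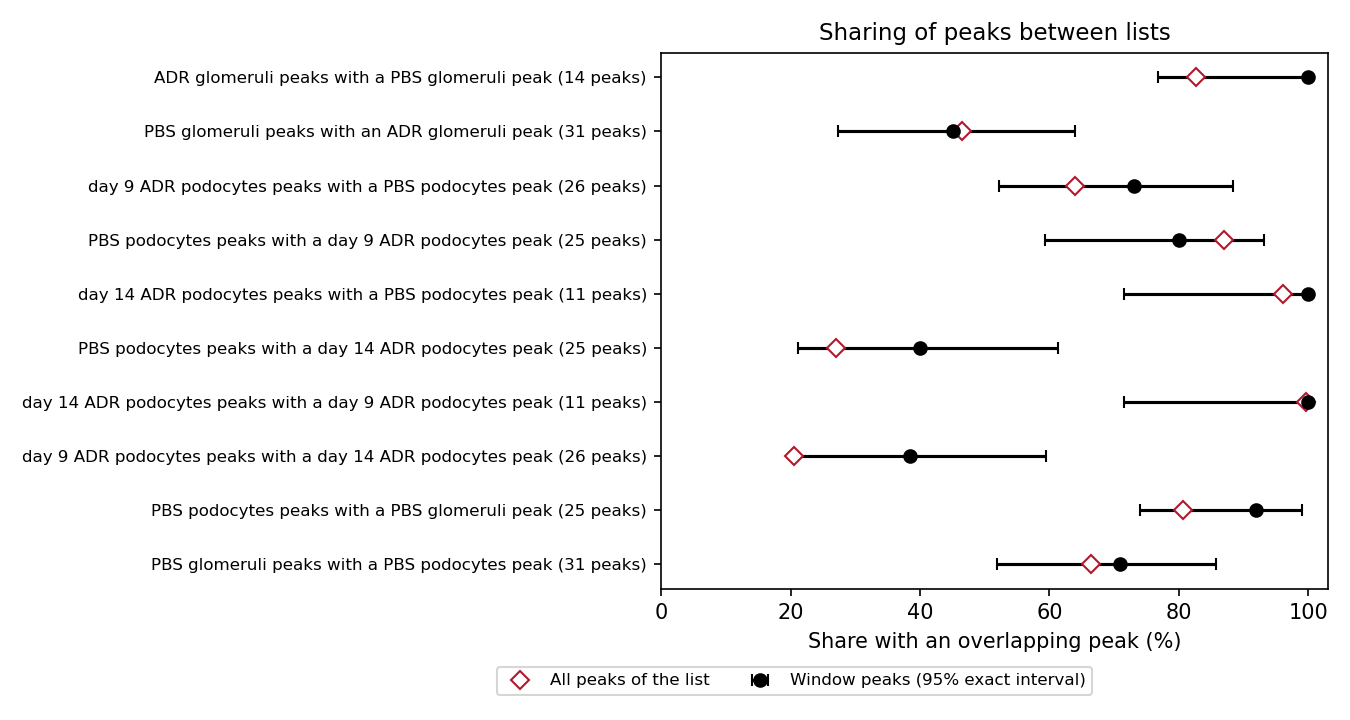
Share of the peaks of a list that overlap a peak of another list (horizontal axis, %), for the peaks of the interval (black points with exact 95% intervals) and for all peaks of the list (open diamonds), 1 row for each direction of the 5 comparisons. The shares over all peaks lie inside the intervals of the interval's peaks in each row. The lowest share over all peaks was 20.5%, of day 9 peaks with a day 14 peak, beside 38.5% in the interval. The peak counts of both PBS lists and of day 14 had entered the choice of the interval.

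Regions called in both PBS lists and in no ADR list numbered 4 (10.8%, 3.03 to 25.4), against 1.92% of all regions. The peak counts of both PBS lists had entered the choice of the interval. They were region 11 at 98609675 to 98610036, region 24 at 98647116 to 98647460, region 33 at 98698085 to 98698381 and region 34 at 98701118 to 98701462. Their peaks had 3.33- to 5.07-fold enrichment in PBS podocytes and 4.76- to 7.43-fold in PBS glomeruli. Regions called in an ADR list and in neither PBS list also numbered 4, against 21.7% of all regions, and each was in day 9 podocytes alone, a class that held 16.1% of all regions. These were region 4 at 98582787 to 98583111 (3.95-fold), region 5 at 98590554 to 98590815 (4.45-fold), region 25 at 98647640 to 98647998 (3.44-fold) and region 32 at 98691230 to 98691490 (5.66-fold). PBS glomeruli alone held regions 1, 8, 9, 13, 15 and 16 (16.2%, 6.19 to 32.0), against 11.04% of all regions, and PBS podocytes alone region 29 (2.70%), against 3.91%. Of the 37 regions, 0 were called in ADR glomeruli alone, against 3.37% of all regions, and 0 at day 14 alone, against 0.0287%. A count of 0 here has an upper bound of 9.49%. The most enriched region called in 1 list alone reached 6.07-fold, below the 11.4-fold that the regions in all lists reached at least in their best list. A region in all lists has more values to take the highest from. Fold enrichment is on no common scale between lists, so nothing is read from this difference.

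Distances between the summits of matched peaks were set beside those over all matched peaks. The median distance was 28 bp between ADR and PBS glomeruli (n = 14 peaks), 26 bp between day 9 and PBS podocytes (n = 19), 30 bp between day 14 and PBS podocytes (n = 11) and 26 bp between day 14 and day 9 (n = 11). Over all matched peaks the medians were 18, 28, 24 and 23 bp in the same order. Between PBS podocytes and PBS glomeruli the median was 57 bp (n = 23), against 28 bp over all matched peaks. There 10 of the 23 pairs lay within 50 bp (43.5%), against 69.7% of all matched peaks. In the other comparisons, in the order above, this share was 64.3%, 84.2%, 63.6% and 72.7%. Over all matched peaks it was 82.2%, 70.3%, 76.1% and 78.3%. The widest spread was in region 12, where the summit was at 98612433 in ADR glomeruli and 98612376 at day 14, but at 98611943 in PBS glomeruli, 98612057 in PBS podocytes and 98611962 at day 9. The region was 1354 bp long, so the summits fall in separate parts of it. In region 19 the summits spanned 398 bp, with 98637203 in ADR glomeruli and 98636805 in PBS glomeruli at the ends.

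The order of enrichment was compared over shared regions, and the rank correlation was highest between podocyte lists. Spearman's rho over regions with a peak in both lists was 0.772 for day 9 and PBS podocytes (n = 19 regions), 0.697 for day 14 and PBS podocytes (n = 10) and 0.867 for day 14 and day 9 (n = 10). It was 0.424 for ADR and PBS glomeruli (n = 14) and 0.496 for PBS podocytes and PBS glomeruli (n = 22). Over all matched peaks the values were 0.800, 0.714, 0.803, 0.499 and 0.601. These values are descriptions, since the regions lie side by side on 1 chromosome and share the libraries and background of their lists.

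Peaks of the interval were not uniformly strong. The share above the median enrichment of the whole list was 9 of 14 in ADR glomeruli and 14 of 31 in PBS glomeruli, and 15 of 25, 15 of 26 and 4 of 11 in PBS, day 9 and day 14 podocytes. Median peak widths were 464 bp in ADR glomeruli and 333 bp in PBS glomeruli, against 303 and 334 bp over the whole lists. In PBS, day 9 and day 14 podocytes they were 516, 555 and 438 bp, against 472, 450 and 387 bp.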

How the data were processed

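Per the submitters' processing notes, the authors used Bowtie 0.12.7 for alignment, the mm9 build and MACS2 for peaks. They deposited 1 narrowPeak list a group. The sources used here do not give how libraries were pooled, the control, duplicates or the cutoff. The 2 libraries labelled as input are from glomeruli. Fold enrichment, a ratio over background, the −log10 p and the −log10 q (treated as a score for filtering) are the authors' deposited values. The authors also deposited an integer score, which entered no result. Read depth was not analysed here, so the precision it gives is unknown.

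Members were the peaks whose summit (column 2 plus column 10) fell in the interval. The interval, the regions named and the motifs were chosen with earlier results of these data known. The text names regions with a peak in all 5 lists, the 3 most enriched peaks of each list, regions in both PBS lists and no ADR list or the reverse, and the members at each edge. Other regions were named after their values were seen. Coordinates are 1-based. Promoter sequences are from RefSeq (GRCm38.p6), with entries for 2 of the 4 genes. Alternatives were other overlap rules, a stricter q, lists of equal length and a shifted grid. The overlap and merging code was tested on simulated lists. Values were computed in Python 3.11.15 with pandas 2.3.3, numpy 2.4.6 and scipy 1.17.1, and plotted with matplotlib 3.10.9.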

Additional observations from a re-analysis of the deposited data

Results flagged for a closer look

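The interval held 14 peaks in ADR glomeruli and 31 in PBS glomeruli, a difference of -17, while day 9 podocytes held 26 and PBS podocytes 25, a difference of 1 in the other direction. The opposite directions drew attention, and the difference between them was not tested, since each group has 1 list. Over all peaks the ratios of ADR to PBS were 0.572 in glomeruli and 1.37 at day 9. The counts of both PBS lists had entered the choice of the interval, and those of ADR glomeruli and day 9 had not. The choice thus favours high PBS counts here, and nothing is read from either difference. The day 9 difference turned with the setting. With a −log10 q of at least 10, day 9 podocytes held 19 members and PBS podocytes 21, and the densest 100 kb window without that limit held 19 peaks at day 9 and 20 with PBS.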

How the results depend on the processing

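No paired analysis was possible because only 1 list stands for each group, so that no replicate could be left out either. Of 79 recomputed values, 66 stayed within 1.5 times a count or distance, or within the interval of a share. Requiring a −log10 q of at least 10 left 8 members in ADR glomeruli and 16 in PBS glomeruli, and 21, 19 and 6 in PBS, day 9 and day 14 podocytes, which turned the difference of day 9 from PBS, with 22 regions, 5 of them in all lists. Under it the densest 100 kb window held 6 peaks in ADR glomeruli, 14 in PBS glomeruli and 4 at day 14, 89.5% of day 9 members had a PBS podocyte peak (65.0% over the whole list), as had all PBS glomerular members (100%, against 74.3%). When the longer list was shortened by caller p-value to the length of the other, 75.0% of PBS glomerular members had an ADR peak (59.7% over the whole list). A day 14 peak was found for 81.8% of PBS podocyte members (71.2%) and 72.7% of day 9 members (77.4%). These shares rest on fewer members, and weak peaks are the ones removed. The counts of both PBS lists and of day 14 had entered the choice of the interval, so nothing is read from their distance to the whole list. Ranked by caller p-value, 2 of the 3 most enriched members of each list were again among its first 3. Bridged gaps, the other overlap rules, merged touching peaks, membership by any overlap and the shifted grid moved no value beyond those limits.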
